A study of Schizosaccharomyces pombe with 70 samples.

Results

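The transcripts of 30 genes for subunits of RNA polymerases I, II and III were followed in fission yeast (Schizosaccharomyces pombe) kept in hydroxyurea. The genes were all those whose symbol in the array's probe annotation begins with rpa, rpb or rpc followed by a digit, together with nuc1, and they were 30 of the 4929 gene features on the array. All 30 were tested, each as the mean of its 2 probes, and all 30 carry the same symbol in RefSeq. By textbook composition 6 belong to Pol I only (nuc1, rpa2, rpa12, rpa34, rpa43 and rpa49), 7 to Pol II only (rpb1, rpb2, rpb3, rpb4, rpb7, rpb9 and rpb11) and 10 to Pol III only (rpc1, rpc2, rpc11, rpc17, rpc25, rpc31, rpc34, rpc37, rpc53 and rpc82). A further 2 are shared by Pol I and Pol III (rpc19 and rpc40), and 5 are shared by every polymerase (rpb5, rpb6, rpb8, rpb10 and rpc10).

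Pol I makes the large ribosomal RNA precursor, Pol III makes the smallest ribosomal RNA, tRNAs and other small RNAs, and Pol II makes messenger RNAs. These enzymes have a related core built on their largest and second largest subunits, a stalk, and a zinc subunit that helps cut RNA. Pol I and Pol III also carry permanent partners that resemble general factors of Pol II. In yeasts the genes of Pol I and Pol III are commonly expressed together with those for building ribosomes, which are turned down in stress.

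The strains were rad3sep1, rad3, cds1, chk1 and wild type (WT); the labels name the mutated genes but not the alleles. Rad3 is the apical checkpoint kinase, Cds1 and Chk1 are its effector kinases, and Sep1 is a forkhead transcription factor. Asynchronous cultures in the mid-log phase, grown at 30 degrees, received 8 mM hydroxyurea (HU), which starves DNA replication of deoxynucleotides, for 0, 10, 30, 60 or 120 min. Each of the 70 arrays set 1 culture (Cy5) against untreated WT cells (Cy3), so that every level below is the log2 ratio of a culture to untreated WT. The dyes were not swapped.

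The series text calls the repeats biological, 3 for each time in 4 strains and 2 for each time in rad3sep1. Of the 65 array pairs within a group, 9 had differences that did not correlate between the 2 probes of a gene (below 0.1). Each of these pairs was averaged and counted as 1 sample. That left 5 samples for rad3sep1 (1 for each time), 14 for rad3, 15 for cds1, 14 for chk1 and 13 for WT, or 61 in all. A rad3sep1 time therefore has no spread of its own, and its tests assume that it varied like the other groups. The labels were checked on the mutated genes, whose transcripts were lowest in their own mutants, sep1 for example averaging -3.54 ± 0.18 in rad3sep1 and -0.09 ± 0.20 in WT (SD, n = 5 and 13 samples). Because a ratio is relative to the rest of an array, a change of total RNA per cell would not be seen, and fewer cells with a transcript cannot be told apart from less of it per cell.

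Between 9 and 15 of the 30 subunit genes fell late in HU in each strain, and no member rose past the threshold. The other members did not pass, and 10 passed in none of the strains. Most of the genes that fell were those of Pol I and Pol III, which also make up most of the list. The classes are small, and differences between the enzymes were not tested in any strain. In cds1, 3 of 7 Pol II genes fell (class median -0.29), beside 3 of 6 for Pol I (-0.47) and 6 of 10 for Pol III (-0.31). In chk1, 3 of the 6 Pol I genes had a late change below 0. The late response is the mean of 60 and 120 min minus 0 min, given as log2 change ± SE from limma. A member is called where its p, adjusted by Benjamini-Hochberg over all 4921 features tested, is under 0.05. Lower calls covered 10 of 30 members in rad3sep1, 12 in rad3, 15 in cds1, 9 in chk1 and 9 in WT. Over all features, the lower calls made up 5.14% in rad3sep1, 8.94% in rad3, 12.6% in cds1, 14.9% in chk1 and 12.1% in WT. Higher calls, none of them among the members, made up 11.0% of all features in rad3sep1, 10.4% in rad3, 12.4% in cds1, 12.6% in chk1 and 12.3% in WT. The median change of the 30 members was -0.41 in rad3sep1, -0.21 in rad3, -0.32 in cds1, -0.20 in chk1 and -0.14 in WT, while the median of all features lay between -0.02 and 0.02. A fit with the replicate number as a block called more features lower late, 15.7% in rad3, 19.7% in cds1 and 21.0% in chk1. Those shares belong to the blocked values of single members given below. The counts are from the fit without a block.

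Of the Pol I genes, 3 of 6 were called in rad3sep1, 4 in rad3, 3 in cds1, 3 in chk1 and 4 in WT. Their median late change was -0.69 in rad3sep1, -0.45 in rad3, -0.47 in cds1, -0.18 in chk1 and -0.36 in WT. Of the Pol III genes, 4 of 10 were called in rad3sep1, 7 in rad3, 6 in cds1, 3 in chk1 and 3 in WT. Their median was -0.45 in rad3sep1, -0.35 in rad3, -0.31 in cds1, -0.22 in chk1 and -0.25 in WT. Of the Pol II genes, 0 of 7 were called in rad3sep1, 0 in rad3, 3 in cds1, 0 in chk1 and 1 in WT. Their median was -0.17 in rad3sep1, -0.12 in rad3, -0.29 in cds1, -0.06 in chk1 and -0.06 in WT. Over the 5 strains, 20 of 30 members were called at least once. These were 5 of 6 for Pol I, 3 of 7 for Pol II, 8 of 10 for Pol III, 2 of 2 for the subunits of Pol I and Pol III, and 2 of 5 for those of every polymerase. Called in every strain were rpa49, rpa43 and rpc1, while rpa12, rpb2, rpb3, rpb9, rpb11, rpc31, rpc82, rpb5, rpb6 and rpb10 were called in none. The shares of all features called in at least 1 strain, or in every strain, are not given here. These counts over strains therefore cannot be set beside the shares of single strains. The rad3sep1 calls depended on the scaling: after quantile normalization between arrays 0 of 30 members and 1.02% of features were called lower there, with a member median of -0.32. Without replicate 3 of rad3 at 0 min, 6 rather than 12 members were called in rad3.

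**Figure D1:**
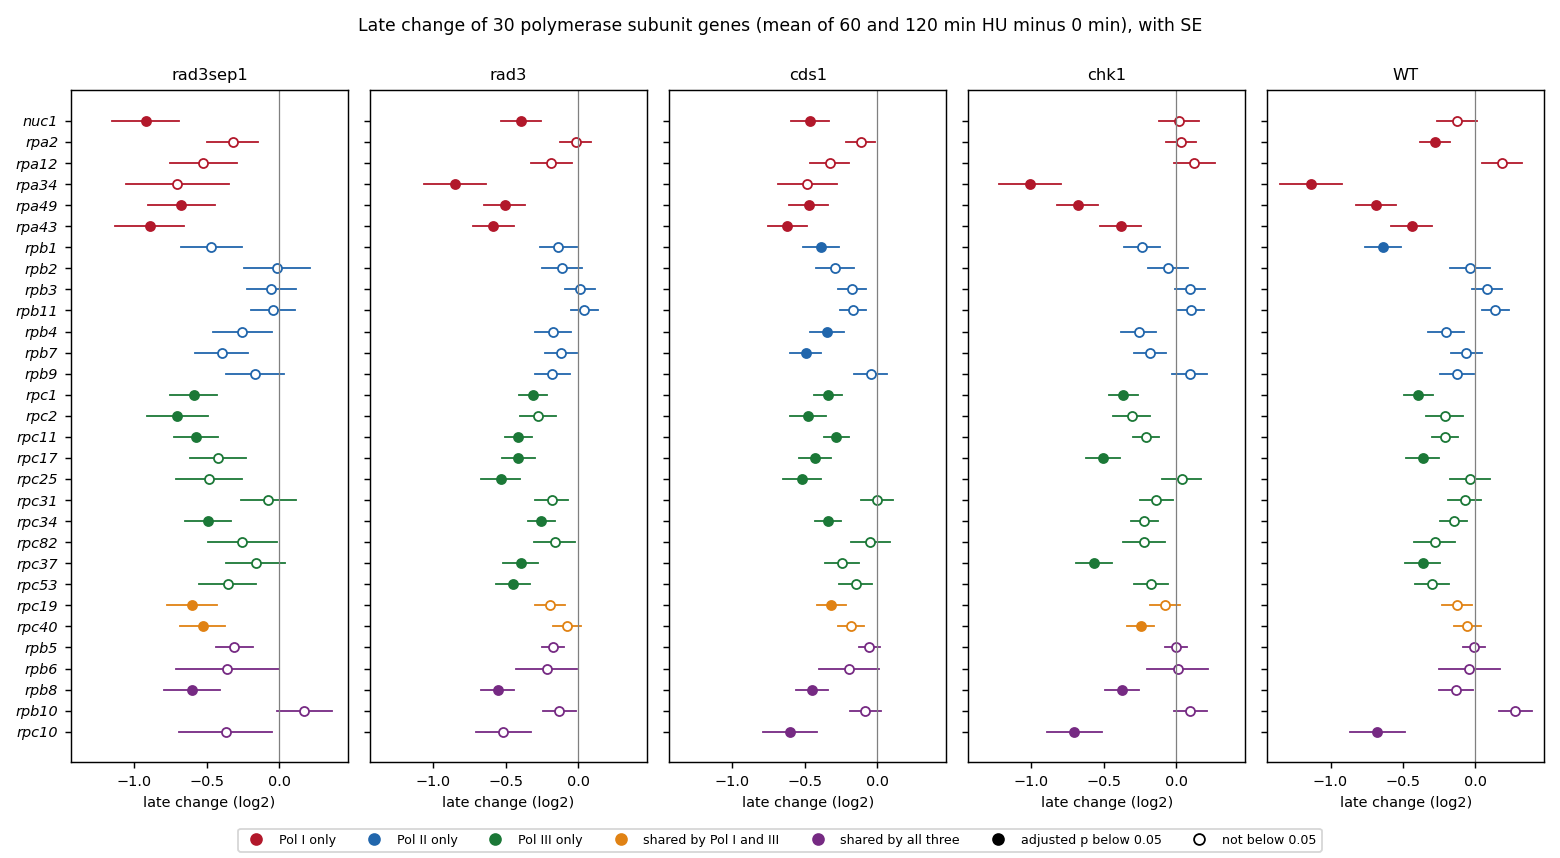
Late log2 change (mean of 60 and 120 min minus 0 min; x axis) of each of the 30 subunit genes (rows, coloured by enzyme) in 5 strains (panels), with bars of 1 SE; filled points passed an adjusted p of 0.05. In each panel the filled points lie left of 0, and the Pol II rows hold 0 to 3 of them.

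In WT the largest falls among the Pol I genes were those of rpa34 and rpa49, which encode the paired subunits that resemble the Pol II factor TFIIF and aid initiation and elongation on ribosomal DNA. In WT, rpa34 had -0.81 and -0.58 in the 60 min samples and -0.92, -1.10 and -0.26 in the 120 min samples, against 0.34, 0.45 and 0.44 in the 0 min samples. The treated samples lay wholly below the untreated ones, although 1 of the 120 min samples fell much less than the other two. The late change was -1.14 ± 0.21 (adjusted p = 8.22e-05), or 0.455 times the untreated level, and only 6 of the 4921 features fell further in WT. Across strains, the late change of rpa34 was -0.70 in rad3sep1, -0.85 in rad3, -0.48 in cds1, -1.01 in chk1 and -1.14 in WT. It was called in rad3 (adjusted p = 0.00332), chk1 (adjusted p = 0.000376) and WT, but neither in rad3sep1 (adjusted p = 0.198) nor in cds1 (adjusted p = 0.0788; -0.48 and 0.0254 with the replicate number as a block). The cds1 samples were spread widely, with 0.22, -0.91 and -0.48 at 120 min against -0.08, 0.12 and 0.53 at 0 min.

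Its partner rpa49 fell in all 5 strains. In WT it had -0.68 and -0.60 in the 60 min samples and -0.69, -0.76 and -0.15 in the 120 min samples, against 0.05, 0.17 and 0.10 in the 0 min samples. Again every treated WT sample was below every untreated one, and the same 120 min sample, replicate 3, was the highest of the treated ones. The late change of rpa49 was -0.68 in rad3sep1, -0.51 in rad3, -0.47 in cds1, -0.68 in chk1 and -0.69 in WT, with adjusted p-values of 0.0381, 0.00712, 0.00756, 0.000236 and 0.00023 in that order. Without replicate 3 of rad3 at 0 min its change in rad3 was -0.44 (adjusted p = 0.06), and without replicate 2 of cds1 at 0 min its change in cds1 was -0.35 (adjusted p = 0.103).

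The Pol I stalk gene rpa43, whose product contacts the initiation factor Rrn3, fell in every strain too, most clearly in cds1. There it had -0.23, -0.31 and -0.11 in the 60 min samples and -0.51, -0.54 and -0.41 in the 120 min samples, against 0.36, 0.18 and 0.27 in the 0 min samples, and the 2 ranges did not overlap. Its late change was -0.89 in rad3sep1, -0.59 in rad3, -0.62 in cds1, -0.39 in chk1 and -0.44 in WT, with an SE of 0.24 in rad3sep1 and 0.14 in each of the other strains. The adjusted p-values lay between 0.000584 in cds1 and 0.037 in chk1. The call in WT was lost on either probe alone and without any 1 of 4 samples (replicates 1 or 3 at 0 min, the averaged replicates 2 and 3 at 60 min, or replicate 2 at 120 min), with changes of -0.53 to -0.35 over all samples left out in turn. In chk1 the call was lost without any 1 of 5 samples (replicates 1, 2 or 3 at 0 min, or replicate 1 at 60 or 120 min), with changes of -0.43 to -0.34.

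The gene of the largest Pol I subunit, nuc1, fell in rad3sep1 (-0.92 ± 0.23; adjusted p = 0.0036), rad3 (-0.39 ± 0.14; adjusted p = 0.0382) and cds1 (-0.46 ± 0.13; adjusted p = 0.00846). In chk1 its change was 0.02 ± 0.14 (adjusted p = 0.938) and in WT -0.13 ± 0.14 (adjusted p = 0.547). In cds1 it had -0.37, -0.68 and -0.44 in the 60 min samples and -0.44, -0.57 and -0.74 in the 120 min samples, against 0.36, -0.26 and -0.33 in the 0 min samples. The treated samples were all below the untreated ones. Replicate 1 stood above the other two at 0 min, and without it the change in cds1 was -0.24 (adjusted p = 0.227). The rad3 call was lost when any 1 of 5 samples was left out (replicates 1 or 3 at 0 min, replicate 2 at 60 min, or replicates 1 or 2 at 120 min), with changes of -0.48 to -0.27. It was also lost on the first probe alone (-0.26; adjusted p = 0.551), after centring, after quantile normalization and with only rad3 in the fit.

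The second largest Pol I subunit gene, rpa2, passed the threshold in WT only by a little, at -0.28 ± 0.11 (adjusted p = 0.0495). It had -0.21 and 0.05 in the 60 min samples and -0.15, -0.16 and -0.28 in the 120 min samples in WT, against 0.13, 0.09 and 0.20 in the 0 min samples. The groups did not overlap, but the call was lost when any 1 of 7 of the 8 samples was left out (all but the averaged replicates 2 and 3 at 60 min), with changes of -0.34 to -0.22. It was also lost on either probe alone and after centring each array on its median, and the 2 probes of rpa2 had a correlation of -0.35 over the 70 arrays. For rpa12, the zinc subunit of Pol I, the late change was -0.52 in rad3sep1, -0.19 in rad3, -0.33 in cds1, 0.12 in chk1 and 0.19 in WT, and none of these passed (lowest adjusted p = 0.065, in cds1, where the replicate block gave -0.33 and an adjusted p of 0.00215).

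In WT, rpa34 fell further than any called gene of Pol III. The gene of its largest subunit, rpc1, fell in all 5 strains, by 0.59 in rad3sep1, 0.31 in rad3, 0.34 in cds1, 0.37 in chk1 and 0.39 in WT on the log2 scale (adjusted p = 0.00944, 0.0209, 0.007, 0.0046 and 0.00282 in that order). In WT, rpc1 had -0.35 and -0.60 in the 60 min samples and -0.55, -0.92 and -0.57 in the 120 min samples, against -0.24, -0.20 and -0.11 in the 0 min samples. All 5 treated WT samples lay below all 3 untreated ones. Its calls were lost after quantile normalization, where the changes were -0.33 in rad3sep1 and -0.28 in cds1. The rad3 call was also lost without any 1 of 4 samples (replicates 1 or 3 at 0 min, or replicate 2 at 60 or 120 min), with changes of -0.37 to -0.25. The chk1 call was lost without replicate 1 at 0 min (-0.28; adjusted p = 0.0594).

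The second largest subunit gene, rpc2, fell in rad3sep1 (-0.70 ± 0.21; adjusted p = 0.0161) and cds1 (-0.48 ± 0.12; adjusted p = 0.00292). The 2 probes of rpc2 gave different sizes. In rad3sep1 they gave -0.47 and -0.93, and neither alone passed, while in cds1 they gave -0.27 (adjusted p = 0.133) and -0.69. Its change was -0.28 ± 0.13 in rad3, -0.31 ± 0.13 in chk1 and -0.21 ± 0.13 in WT without a call. With the replicate number as a block it was called in rad3 (-0.27; adjusted p = 0.0231) and in chk1 (-0.33; adjusted p = 0.00364).

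The Pol III stalk is formed by the products of rpc17 and rpc25, of which rpc17 was called in 4 strains and rpc25 in 2 of those. In chk1, rpc17 had -0.22 and -0.20 in the 60 min samples and -0.69, -0.46 and -0.41 in the 120 min samples, against 0.13, 0.19 and 0.11 in the 0 min samples, without overlap. It was called in rad3 (-0.41 ± 0.12; adjusted p = 0.00812), cds1 (-0.43 ± 0.11; adjusted p = 0.00321), chk1 (-0.51 ± 0.12; adjusted p = 0.000816) and WT (-0.36 ± 0.12; adjusted p = 0.0167), and missed the threshold in rad3sep1 (-0.42 ± 0.19; adjusted p = 0.141). The WT call was lost without replicate 2 or 3 at 0 min or replicate 1 at 60 min, with changes of -0.47 to -0.31. The gene rpc25 was called in rad3 (-0.54 ± 0.14; adjusted p = 0.00342) and cds1 (-0.52 ± 0.13; adjusted p = 0.00254), its change being 0.04 ± 0.14 in chk1 and -0.04 ± 0.14 in WT. In cds1 it had -0.52, -0.69 and -0.19 in the 60 min samples and -0.97, -0.77 and -0.71 in the 120 min samples, against -0.19, -0.30 and 0.12 in the 0 min samples. The 120 min samples lay below all untreated ones and the 60 min samples overlapped them. Without replicate 3 at 0 min, the change of rpc25 was -0.33 in rad3 (adjusted p = 0.128) and, leaving out that number in cds1, -0.40 (adjusted p = 0.0527).

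The gene of the zinc subunit rpc11, which Pol III needs to terminate and start again, was called in rad3sep1 (-0.57 ± 0.15; adjusted p = 0.00658), rad3 (-0.41 ± 0.09; adjusted p = 0.000907) and cds1 (-0.28 ± 0.09; adjusted p = 0.0156). In rad3 it had -0.38 and -0.28 in the 60 min samples and -0.81, -0.70 and -0.61 in the 120 min samples, against -0.12, -0.12 and -0.07 in the 0 min samples. The groups did not overlap, and the 120 min samples were the lowest. The cds1 call was lost without replicate 2 at 0 min (-0.26; adjusted p = 0.0679). The TFIIF-like pair of Pol III is encoded by rpc37 and rpc53. In chk1, rpc37 had -0.10 and -0.05 in the 60 min samples and -0.49, -0.37 and -0.27 in the 120 min samples, against 0.27, 0.34 and 0.43 in the 0 min samples, again without overlap, and a late change of -0.57 ± 0.12 (adjusted p = 0.000412). It was also called in rad3 (-0.40 ± 0.12; adjusted p = 0.0162) and WT (-0.36 ± 0.12; adjusted p = 0.024). The rad3 call was lost without replicate 1 at 0 min (-0.34), and the WT call without replicate 2 at 0 min, the averaged replicates 2 and 3 at 60 min or replicate 2 at 120 min, with changes of -0.48 to -0.21. Its partner rpc53 passed in rad3 (-0.45 ± 0.12; adjusted p = 0.00476), where the second probe alone gave -0.09 and the fit without replicate 3 at 0 min gave -0.37 (adjusted p = 0.0573).

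The remaining Pol III genes, rpc31, rpc34 and rpc82, encode the trimer that recruits the enzyme to its promoters. Of these rpc34 was called in rad3sep1 (-0.49 ± 0.16), rad3 (-0.25 ± 0.09) and cds1 (-0.34 ± 0.09), with adjusted p-values of 0.0233, 0.0486 and 0.00436 in that order. The rad3 call was lost without any 1 of 6 samples (all but replicate 1 at 0 min and replicate 1 at 120 min), with changes of -0.30 to -0.22. It was also lost on the first probe alone (-0.35), on the second alone (-0.16; adjusted p = 0.491), after centring, after quantile normalization and with only rad3 in the fit. In chk1 the change of rpc34 was -0.22 ± 0.09 (adjusted p = 0.0734; -0.23 and 0.0328 with the replicate block). Neither rpc31 (-0.07 in rad3sep1, -0.18 in rad3, -0.00 in cds1, -0.14 in chk1 and -0.07 in WT) nor rpc82 (-0.25 in rad3sep1, -0.16 in rad3, -0.05 in cds1, -0.22 in chk1 and -0.28 in WT) was called anywhere.

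Among the Pol II genes 2 falls stood out, in different strains. The gene of the largest subunit, rpb1, which carries the tail that couples transcription to RNA processing, had -0.19 and -0.76 in the 60 min samples and -0.67, -0.96 and -1.25 in the 120 min samples in WT, against 0.21, -0.19 and -0.25 in the 0 min samples. All of the 120 min samples were below the untreated ones, and the 60 min samples overlapped them. The late change was -0.64 ± 0.13 in WT (adjusted p = 0.000177) and -0.39 ± 0.12 in cds1 (adjusted p = 0.0159; -0.23 and 0.234 without replicate 1 at 0 min). It was -0.47 ± 0.21 in rad3sep1, -0.14 ± 0.13 in rad3 and -0.24 ± 0.13 in chk1, where the replicate block gave -0.24 with an adjusted p of 0.0401. The stalk gene rpb7 was called in cds1 alone, at -0.49 ± 0.10 (adjusted p = 0.000366). There it had 0.03, -0.18 and -0.36 in the 60 min samples and -0.64, -0.24 and -0.41 in the 120 min samples, against 0.42, 0.17 and -0.00 in the 0 min samples. The 120 min samples were below the untreated ones and 1 of the 60 min samples overlapped them, and in WT the change was -0.06 ± 0.11 (adjusted p = 0.721).

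The partner of rpb7 in the stalk, rpb4, was called in cds1 as well, at -0.35 ± 0.12 (adjusted p = 0.0262). It had -0.15, 0.27 and -0.06 in the 60 min samples and 0.05, 0.23 and 0.01 in the 120 min samples, against 0.55, 0.45 and 0.22 in the 0 min samples. The groups overlapped, and the call was lost on either probe alone and without any 1 of 4 samples (replicates 1 or 2 at 0 min, replicate 1 at 60 min or replicate 3 at 120 min), with changes of -0.44 to -0.27. The second largest subunit gene, rpb2, had -0.56, -0.41 and -0.50 in the 60 min samples and -1.08, -0.31 and -0.55 in the 120 min samples in cds1, against -0.52, -0.09 and -0.23 in the 0 min samples. These overlapped too. Its change there was -0.29 ± 0.13 (adjusted p = 0.102; -0.29 and 0.00261 with the replicate block), and that of rpb11, a subunit of the assembly platform, was -0.17 ± 0.09 (adjusted p = 0.166). In cds1, rpb11 had 0.28, 0.00 and -0.10 in the 60 min samples and 0.14, 0.07 and 0.09 in the 120 min samples, against 0.46, 0.16 and 0.12 in the 0 min samples, which overlapped. Over the 5 strains, rpb3, the platform partner of rpb11, had values of -0.17 to 0.09, and rpb9, the zinc subunit, of -0.18 to 0.09, with no call.

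Of the subunits common to Pol I and Pol III, rpc19 was called in rad3sep1 (-0.60 ± 0.17; adjusted p = 0.0113) and cds1 (-0.32 ± 0.10; adjusted p = 0.0153). In cds1 it had -0.03, -0.56 and -0.04 in the 60 min samples and -0.25, -0.25 and -0.19 in the 120 min samples, against 0.17, -0.04 and 0.16 in the 0 min samples. The 120 min samples were below the untreated ones and the 60 min samples overlapped them. The cds1 call was lost without replicate 1 or 3 at 0 min or replicate 2 at 60 min, with changes of -0.39 to -0.23. Its partner rpc40 was called in rad3sep1 (-0.53 ± 0.16; adjusted p = 0.0145) and chk1 (-0.25 ± 0.09; adjusted p = 0.0435). In chk1 it had -0.51 and -0.29 in the 60 min samples and -0.27, -0.02 and -0.14 in the 120 min samples, against 0.02, -0.06 and -0.04 in the 0 min samples, with the lowest values at 60 min. The groups overlapped, and the call was lost without any 1 of 6 of the 8 samples (replicates 1, 2 or 3 at 0 min, replicate 1 at 60 min, or replicates 1 or 3 at 120 min), with changes of -0.30 to -0.19.

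Of the subunits held by every polymerase, rpc10 and rpb8 were called and the other members were not. The gene rpc10, which encodes a small zinc protein, had -0.27 and -0.02 in the 60 min samples and -0.91, -0.62 and -0.45 in the 120 min samples in chk1, against -0.14, 0.42 and 0.62 in the 0 min samples. The 120 min samples were below the untreated ones and the 60 min samples overlapped them. It was called in cds1 (-0.60 ± 0.18; adjusted p = 0.0134), chk1 (-0.70 ± 0.19; adjusted p = 0.00477) and WT (-0.68 ± 0.19; adjusted p = 0.0077). In rad3 it lay at the threshold (-0.52 ± 0.19; adjusted p = 0.0503; -0.49 and 0.00973 with the replicate block). Leaving out replicate 3 at 0 min ended the chk1 call (-0.54; adjusted p = 0.0695), and leaving out replicate 2 or 3 at 0 min or replicate 1 at 60 min ended the cds1 call, with changes of -0.78 to -0.45. The gene rpb8 was called in the 4 mutants and not in WT. Its change was -0.60 ± 0.19 in rad3sep1 (adjusted p = 0.0254), -0.56 ± 0.12 in rad3 (adjusted p = 0.000449), -0.45 ± 0.11 in cds1 (adjusted p = 0.00219), -0.37 ± 0.12 in chk1 (adjusted p = 0.0137) and -0.14 ± 0.12 in WT (adjusted p = 0.43). In rad3 it had -0.41 and -0.40 in the 60 min samples and -0.78, -0.78 and -0.49 in the 120 min samples, against -0.16, -0.11 and 0.31 in the 0 min samples. All treated samples were below the untreated ones. The chk1 call of rpb8 was lost without replicate 2 or 3 at 0 min or replicate 1 at 60 min, with changes of -0.46 to -0.30.

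The other shared genes gave no call in the fit used for the counts. In WT, rpb10 had 0.18 and 0.37 in the 60 min samples and 0.21, 0.29 and 0.21 in the 120 min samples, against -0.13, -0.05 and 0.10 in the 0 min samples, all treated samples being the higher ones. The change of rpb10 in WT was 0.28 ± 0.11 (adjusted p = 0.0699). It was called higher with only WT in the fit (adjusted p = 0.0485), with array weights (0.23; adjusted p = 0.0449) and with all 70 arrays as samples (0.29; adjusted p = 0.0221). In rad3 the groups overlapped for both rpb5 and rpb6. There, rpb5 had 0.10 and -0.07 in the 60 min samples and -0.01, -0.25 and 0.20 in the 120 min samples, against 0.15, 0.02 and 0.34 in the 0 min samples, with a change of -0.17 ± 0.08 (adjusted p = 0.108). In the same strain rpb6 had -0.37 and -0.09 in the 60 min samples and -0.62, -0.41 and -0.25 in the 120 min samples, against -0.32, -0.14 and 0.13 in the 0 min samples, with a change of -0.22 ± 0.21 (adjusted p = 0.513). The 2 probes of rpb5, rpb6 and rpb9 had negative correlations over the arrays (-0.28, -0.13 and -0.08), and the median over the 30 members was 0.608. In all 55 late calls of members, both probes had the same sign. The calls were made on the mean of these 2 probes, which favours genes whose probes agree, so this is no separate check.

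**Figure D2:**
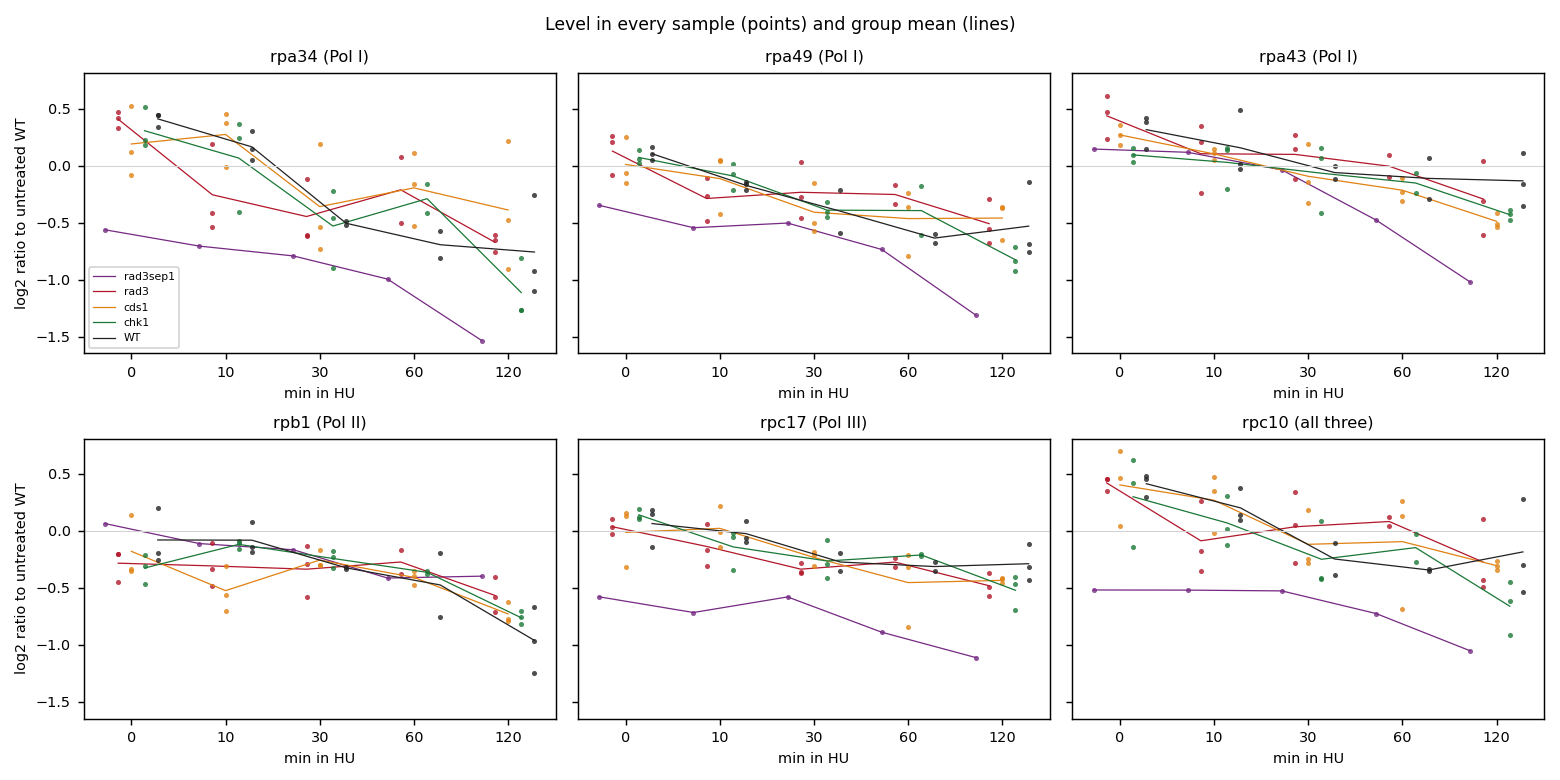
Log2 ratio to untreated WT (y axis) against min in HU (x axis, even steps) for 6 subunit genes, with a point for every sample and lines through the group means of each strain. In WT rpa34 lies at 0.34, 0.45 and 0.44 at 0 min and at -0.92, -1.10 and -0.26 at 120 min, and rad3sep1 starts below the other strains for rpa34, rpa49, rpc17 and rpc10.

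Many late calls rested on the mean of both probes or on the scaling. On the first probe alone the lost calls were nuc1, rpa43, rpa49, rpc1, rpc11, rpc19, rpc2, rpc34 and rpc40 in rad3sep1, nuc1, rpa43, rpa49, rpc1, rpc17, rpc34 and rpc37 in rad3, nuc1, rpb1, rpb4, rpc1, rpc17 and rpc2 in cds1, rpa43, rpc1, rpc10 and rpc40 in chk1, and rpa2, rpa43, rpc17 and rpc37 in WT. On the second probe alone they were rpa43, rpa49, rpb8, rpc2 and rpc34 in rad3sep1, rpc1, rpc11, rpc25, rpc34 and rpc53 in rad3, rpb4, rpc10, rpc11, rpc19, rpc25 and rpc34 in cds1, rpa43, rpb8 and rpc40 in chk1, and rpa2 and rpa43 in WT. After quantile normalization they were nuc1, rpa43, rpa49, rpb8, rpc1, rpc11, rpc19, rpc2, rpc34 and rpc40 in rad3sep1, nuc1, rpc1 and rpc34 in rad3, nuc1, rpb1 and rpc1 in cds1, rpa43, rpc1 and rpc40 in chk1, and rpc1 in WT.

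Set side by side at the same position of the enzymes, the counterparts had different late changes. At the stalk position, rpa43 had the lowest change of its trio with rpb7 and rpc25 in all 5 strains, the range within the trio being 0.50 in rad3sep1, 0.47 in rad3, 0.13 in cds1, 0.42 in chk1 and 0.40 in WT on the log2 scale. At the position of the largest subunit, nuc1 was lowest in rad3sep1, rad3 and cds1, rpc1 in chk1 and rpb1 in WT, with nuc1 the highest of the trio in chk1 and WT. At the second largest, rpc2 was lowest in the 4 mutants and rpa2 in WT. Among the zinc subunits rpc11 was lowest in rad3sep1, rad3, chk1 and WT and rpa12 in cds1. On the platform, rpc40 lay below rpb3 and rpc19 below rpb11 in all 5 strains, by 0.01 (cds1) to 0.47 (rad3sep1) for rpc40 and by 0.15 (cds1) to 0.56 (rad3sep1) for rpc19. These orders are descriptions of changes. The differences between genes of an array were not tested, and levels of different genes were not compared.

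**Figure D3:**
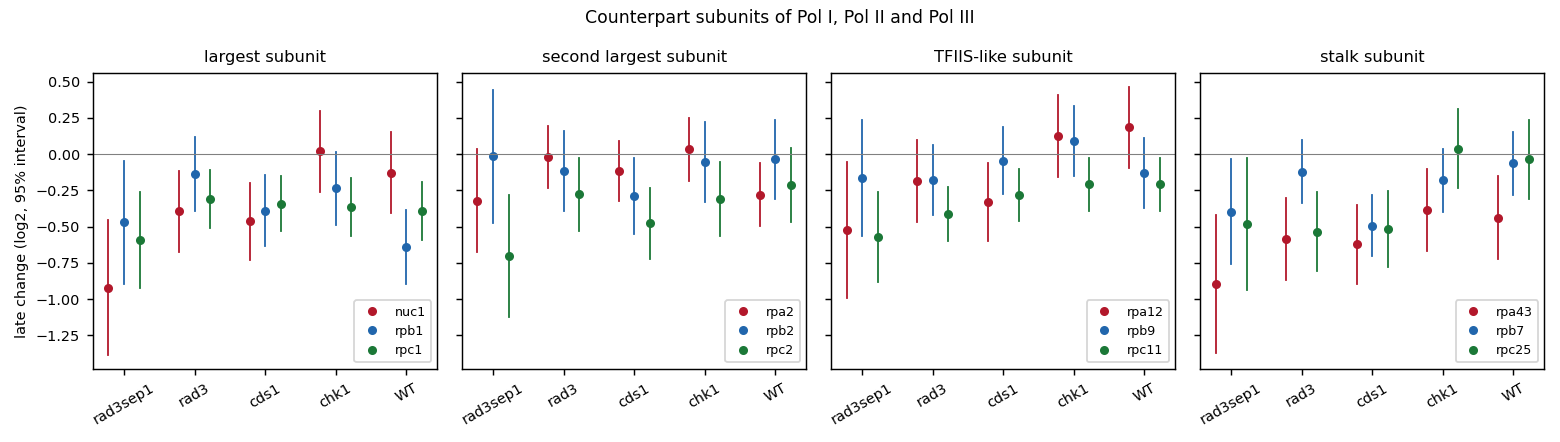
Late log2 change with its 95% interval from limma (y axis) of the counterpart subunits of Pol I (red), Pol II (blue) and Pol III (green) at 4 positions (panels) in each strain (x axis). At the stalk rpa43 is the lowest point in each of the 5 strains, while rpc25 lies at 0.04 in chk1 and -0.04 in WT.

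Changes at single times are given as class medians and were not tested against each other. The median change of the Pol I genes at 10, 30, 60 and 120 min was -0.17, -0.21, -0.42 and -0.97 in rad3sep1, -0.24, -0.27, -0.30 and -0.61 in rad3, -0.17, -0.26, -0.40 and -0.49 in cds1, -0.09, -0.09, -0.13 and -0.26 in chk1 and -0.15, -0.26, -0.32 and -0.39 in WT. For the Pol III genes it was -0.08, -0.07, -0.31 and -0.57 in rad3sep1, -0.17, -0.15, -0.29 and -0.40 in rad3, 0.01, -0.14, -0.28 and -0.36 in cds1, -0.07, -0.11, -0.13 and -0.35 in chk1 and -0.07, -0.09, -0.14 and -0.29 in WT. In each strain both classes thus had their lowest median at 120 min. Single genes did not all follow the medians. In WT, rpc37 had -0.38 at 30 min and -0.28 at 120 min, while rpa34 had -0.92 and -1.17. The Pol II genes had medians at 120 min of -0.23 in rad3sep1, -0.20 in rad3, -0.31 in cds1, -0.10 in chk1 and -0.04 in WT. The medians of all features at these times lay between -0.02 and 0.11.

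**Figure D4:**
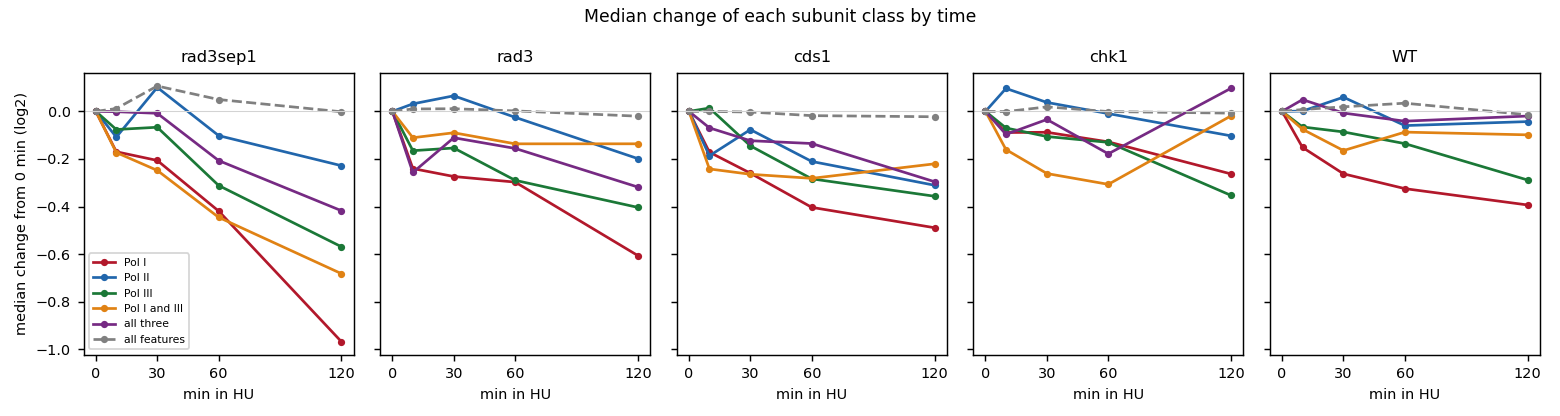
Median log2 change from 0 min (y axis) against min in HU (x axis) for each class of subunits, with all features as the dashed line, in 5 strains (panels). The Pol I line ends at -0.97 in rad3sep1, -0.61 in rad3, -0.49 in cds1, -0.26 in chk1 and -0.39 in WT.

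Early in HU, as the mean of 10 and 30 min minus 0 min, 1 member was called. This was rpa34 in rad3, at -0.76 ± 0.21 (adjusted p = 0.0364), where it had -0.54, -0.42 and 0.19 at 10 min and -0.11, -0.62 and -0.60 at 30 min, against 0.42, 0.47 and 0.33 at 0 min. All treated samples were below the untreated ones, but the early call was lost without any 1 of 7 of the 9 samples (all but replicate 3 at 10 min and replicate 1 at 30 min), with changes of -0.87 to -0.69, and on the second probe alone. Early calls in either direction made up 0.142% of all features in rad3sep1, 2.24% in rad3, 0.528% in cds1, 1.22% in chk1 and 0.772% in WT. Members below an unadjusted p of 0.05 by limma numbered 0, 8, 7, 7 and 3 of 30 in that order, beside 4.35%, 17.0%, 9.04%, 16.1% and 8.43% of all features. For rpa34 the early change was -0.19 in rad3sep1, -0.23 in cds1, -0.54 in chk1 and -0.58 in WT. With the replicate number as a block, 3 members were called in chk1, where that fit called 8.29% of features. They were rpc17 (-0.34; adjusted p = 0.0147), rpc37 (-0.36; adjusted p = 0.0397) and rpa34 (-0.54; adjusted p = 0.0449). In cds1 the block called rpc40 (-0.29; adjusted p = 0.0307) and 2.50% of features.

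Whether the late change of a gene differed between 2 strains was tested as an interaction, and no member passed in any of 4 tests without a replicate block. Over all features, 1.30% passed for rad3 minus WT, 2.15% for cds1 minus WT, 0% for chk1 minus WT and 0.813% for rad3sep1 minus rad3. At an unadjusted p of 0.05 by limma the members numbered 4, 6, 2 and 2 of 30 in that order, beside 10.8%, 15.2%, 2.21% and 9.14% of all features. The smallest p for rad3 minus WT belonged to rpb1, at 0.50 (95% interval 0.14 to 0.86; adjusted p = 0.196), that is, a smaller fall in rad3. Next came rpc25 (-0.50; interval -0.89 to -0.11; adjusted p = 0.247), rpb8 (-0.42; interval -0.75 to -0.09; adjusted p = 0.261) and rpb10 (-0.41; interval -0.73 to -0.08; adjusted p = 0.27). For cds1 minus WT the smallest p belonged to rpb7 (-0.43; interval -0.74 to -0.13; adjusted p = 0.13), rpa12 (-0.51; interval -0.90 to -0.13; adjusted p = 0.166) and rpc25 (-0.48; interval -0.86 to -0.10; adjusted p = 0.188). The rad3 and cds1 comparisons share the WT samples.

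The intervals were wide beside the changes themselves, so the data neither show such differences nor show that the strains responded alike. For rpa34 the difference was 0.29 for rad3 minus WT (95% interval -0.32 to 0.90), 0.65 for cds1 minus WT (0.06 to 1.25) and 0.13 for chk1 minus WT (-0.48 to 0.74). For nuc1, the difference of rad3sep1 minus rad3 was -0.53 (-1.07 to 0.02), and the smallest p of that comparison was that of rpc40 (-0.45; -0.81 to -0.08; adjusted p = 0.37).

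**Figure D5:**
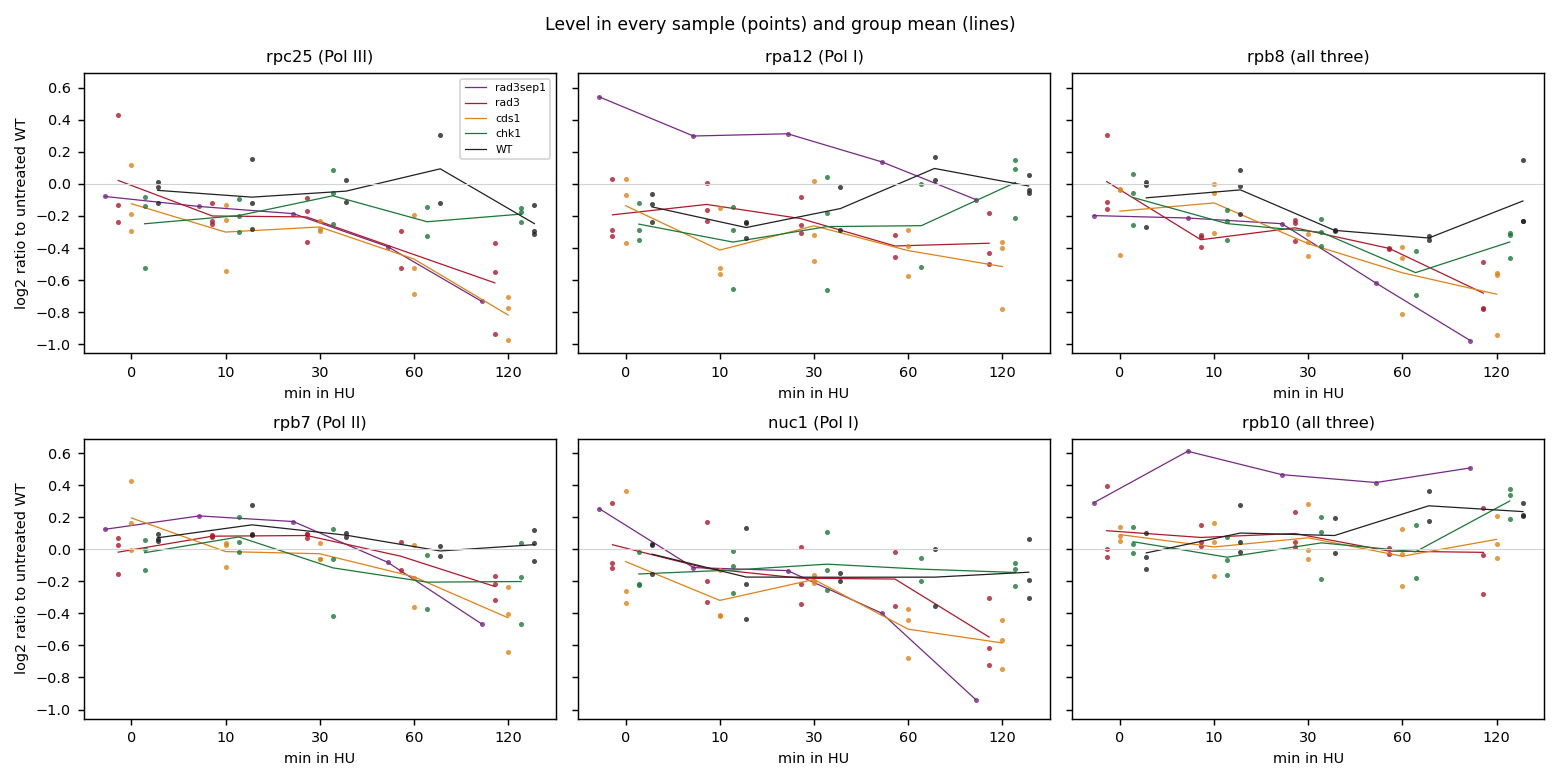
Log2 ratio to untreated WT (y axis) against min in HU (x axis, even steps) for 6 subunit genes chosen after their values were seen, with a point for every sample and lines through group means. At 120 min rpc25 lies at -0.55, -0.94 and -0.37 in rad3 and -0.97, -0.77 and -0.71 in cds1. It lies at -0.17, -0.24 and -0.15 in chk1 and -0.13, -0.30 and -0.32 in WT. No difference between strains in the late change passed in the fit without a replicate block.

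Before HU, the subunit genes of the single mutants were not distinguished from those of WT. No member was called in untreated rad3, cds1 or chk1 minus WT, where 0.955%, 0.122% and 0.142% of features passed in that order, and 0, 0 and 1 members had an unadjusted p below 0.05 by limma, beside 4.23%, 6.83% and 4.92% of features. The differences of all 30 members lay between -0.20 and 0.14 for rad3, -0.22 and 0.15 for cds1 and -0.25 and 0.21 for chk1.

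The untreated rad3sep1 sample differed from untreated rad3 in 7 members, 4 of them lower and 3 higher, but this comparison rests on 1 rad3sep1 sample against 3. Over all features 15.7% were called lower and 6.32% higher. Lower were rpa34 (-0.56 in rad3sep1, against 0.42, 0.47 and 0.33 in rad3), rpc10 (-0.52, against 0.46, 0.35 and 0.45), rpc37 (-0.37, against 0.38, 0.24 and 0.16) and rpc17 (-0.58, against 0.04, 0.11 and -0.03). The differences were -0.97 ± 0.34 (adjusted p = 0.0326), -0.94 ± 0.30 (adjusted p = 0.0204), -0.63 ± 0.19 (adjusted p = 0.0155) and -0.62 ± 0.18 (adjusted p = 0.0122) in the same order. Each of these 4 was also among the 9 members called lower late in WT, a comparison that shares no sample with this one. That is 4 of 9 members (44.4%), beside 239 of the 597 features called lower late in WT (40.0%), so the members' share was near that of all features. Of the 772 features lower in untreated rad3sep1, 31.0% were lower late in WT. Higher were rpa12 (0.54 in rad3sep1, against -0.32, -0.29 and 0.03 in rad3), rpc34 (0.31, against -0.32, -0.19 and -0.16) and rpc11 (0.31, against -0.12, -0.12 and -0.07), none of which was called late in WT. Their differences were 0.74 ± 0.22 (adjusted p = 0.0134), 0.54 ± 0.15 (adjusted p = 0.00718) and 0.41 ± 0.14 (adjusted p = 0.0343). The calls of rpa34 and rpc11 were lost without replicate 1 or 2 of untreated rad3, with differences of -1.01 to -0.94 and 0.40 to 0.43. The same rad3sep1 sample at 0 min is also the baseline of every late change of rad3sep1. A gene that stood high in that sample would show a larger late fall, and a gene that stood low a smaller one. The untreated differences and the late changes of rad3sep1 are therefore not separate results.

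Genes for the factors that work with the enzymes were counted from lists drawn up from general knowledge. The counts stand beside lower calls over all features of 5.14% in rad3sep1, 8.94% in rad3, 12.6% in cds1, 14.9% in chk1 and 12.1% in WT, and higher calls of 11.0%, 10.4%, 12.4%, 12.6% and 12.3% in the same order. Of 9 Pol I factors, 1 was called lower late in rad3sep1, 2 in rad3, 2 in cds1, 5 in chk1 and 5 in WT, and none was called higher. Their median late change was -0.23 in rad3sep1, -0.13 in rad3, -0.10 in cds1, -0.29 in chk1 and -0.34 in WT. The gene ker1, which encodes the stalk partner of Rpa43, was called in all 5 strains (-0.70 in rad3sep1, -0.50 in rad3, -0.58 in cds1, -0.59 in chk1 and -0.46 in WT). The gene spp27, for a subunit of the upstream activation factor of ribosomal DNA, was called in rad3, cds1, chk1 and WT (-0.27 in rad3sep1, -0.47 in rad3, -0.58 in cds1, -0.64 in chk1 and -0.69 in WT). In chk1 and WT, hmo1, for a protein bound to ribosomal DNA, changed by -0.50 (adjusted p = 0.00698) and -0.55 (adjusted p = 0.00355), and rrn11, for a core factor subunit, by -0.46 (adjusted p = 0.000491) and -0.40 (adjusted p = 0.00293).

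Of 8 Pol III factors, 0 were called lower in rad3sep1, 1 in rad3, 2 in cds1, 1 in chk1 and 2 in WT, with medians of -0.08 in rad3sep1, -0.14 in rad3, -0.15 in cds1, -0.14 in chk1 and -0.12 in WT. The gene brf1, for the TFIIB-like subunit of TFIIIB, was called in rad3 (-0.29; adjusted p = 0.0221), cds1 (-0.51; adjusted p = 2.33e-05) and WT (-0.38; adjusted p = 0.00219). The gene sfc1, for a TFIIIC subunit, was called in chk1 (-0.28) and WT (-0.25), and maf1, for the repressor of Pol III, in cds1 (-0.44; adjusted p = 0.0202). Of 22 general factors and elongation factors of Pol II, lower calls numbered 0 in rad3sep1, 0 in rad3, 0 in cds1, 1 in chk1 (tfb1, -0.40) and 1 in WT (spt5, -0.35), and higher calls 2, 1, 2, 1 and 0 in the same order of strains. Both were below the shares of all features. Their median was 0.07 in rad3sep1, 0.00 in rad3, -0.00 in cds1, -0.10 in chk1 and -0.05 in WT. Among the higher ones was tfa1, for a TFIIE subunit, at 1.13 in rad3sep1 (adjusted p = 4.6e-05), 0.52 in rad3 (adjusted p = 0.00132) and 0.30 in cds1 (adjusted p = 0.0498). Also higher were sua7, the gene of TFIIB, in rad3sep1 (0.55; adjusted p = 0.00685) and spt4, for an elongation factor, in chk1 (0.40; adjusted p = 0.0261). Of 6 genes for assembly and import of the polymerases, 0, 2, 1, 2 and 3 were called lower in rad3sep1, rad3, cds1, chk1 and WT, and 1 was called higher, rtr1 in cds1 (0.36). Their median was -0.03 in rad3sep1, -0.09 in rad3, -0.04 in cds1, -0.27 in chk1 and -0.25 in WT. The GTPase gene npa3 was called in rad3 (-0.36; adjusted p = 0.0275), cds1 (-0.32; adjusted p = 0.0362), chk1 (-0.60; adjusted p = 0.000182) and WT (-0.52; adjusted p = 0.00116). Further lower calls were rba50 in rad3 (-0.36; adjusted p = 0.0143) and iwr1, for an import factor of Pol II, in WT (-0.35; adjusted p = 0.0282).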

How the data were processed

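The deposited values were log2 ratios of Cy5 (the sample) over Cy3 (untreated WT), per the labels; the base was checked, since 100% of them were the log2 of a 3-decimal number to a tolerance of 1e-05. How the authors normalized them was not given in the sources used here, and no scaling was added. Array medians lay between -0.154 and 0.055, and the number of arrays limits the precision. Both probes of a gene were averaged, and 4921 of 4929 features, measured on 2 or more arrays in each group, were tested. Of the 4200 probe values of the members 49 were missing.

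Array pairs of a group whose differences had a correlation between probes below 0.1 were averaged. The means of 25 groups of strain and time were fitted with limma 3.58.1 in R 4.3.3 (lmFit, eBayes; tested on simulated data), with Benjamini-Hochberg adjustment over 4921 features and a threshold of 0.05. Figures were drawn with matplotlib 3.10.9 in Python 3.11.15.

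Whether replicate numbers pair samples was judged by correlating the deviations from group means of same-numbered samples. For a response, every pair of a 0 min and a treated sample had to have a correlation over 0.1. For untreated strains, every pair of a mutant and a WT sample had to pass the same limit. This held for the early response of cds1, chk1 and WT, the late response of rad3, cds1 and chk1, and untreated cds1 or chk1 beside WT. Blocked values are printed there where they change a call. The block itself spanned all times of a strain, and pairs of treated times were not part of the rule. Over all pairs of times, correlations over 0.1 numbered 19 of 22 in rad3 (lowest 0.071) and 28 of 30 in cds1 (lowest -0.036). They numbered 22 of 22 in chk1 and 14 of 15 in WT. The blocked values of rad3 and cds1 thus rest on a pairing that did not hold between all times.

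Members, classes and lists were chosen with earlier results of these data known. Values by sample are given for up to 5 members of each class, those with the smallest adjusted p in the late response of any strain but rad3sep1, and up to 4 called genes of each list are named by smallest adjusted p. Alternatives covered array centring, quantile normalization, filters on missing values, single probes, the strains in the fit, robust eBayes, array weights, all 70 arrays as samples, the replicate block and leaving out each sample.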

Additional observations from a re-analysis of the deposited data

How the results depend on the processing

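Of 1083 refits of the 63 calls of single members (55 late, 1 early and 7 untreated), 909 kept the call, 174 lost it and 0 reversed its direction. Losses numbered 35 of 63 with the first probe only, 26 of 63 with the second, 22 of 63 after quantile normalization, 78 of 405 with a sample left out, 6 of 53 with only the strains compared in the fit, 5 of 63 after centring and 2 of 63 with array weights. There were 0 losses with robust eBayes, no filter, features complete on all arrays (27 members), all 70 arrays as samples, or the replicate block.

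Counts of called members moved by over 1.5 times as follows, and the cause was not tested. For single probes, array weights, all 70 arrays and left-out samples, the shares of all features are not given beside the counts. Those counts show only how far the calls of members moved. With 1 probe, late calls were 1 (first) and 5 (second) in rad3sep1, 5 and 7 in rad3, 9 and 9 in cds1, and 5 (first) in chk1; untreated rad3sep1 minus rad3 gave 3 and 4, and early rad3 gave 0 on the second. Quantile normalization gave 0 late calls in rad3sep1 and 2 early calls in each of rad3 and chk1. Array weights gave 14 late calls in WT (13 lower and rpb10 higher), 2 early calls in WT, 8 in rad3 and 1 in chk1, 1 late difference for cds1 minus WT and 11 calls for untreated rad3sep1 minus rad3. Taking all 70 arrays as samples gave 19 late calls in rad3sep1, 3 early calls in rad3 and 2 in chk1, 1 late difference for each of rad3 minus WT and rad3sep1 minus rad3, and 14 calls for untreated rad3sep1 minus rad3.

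The replicate block also called more of the 4921 features than the fit used for the counts. Early in rad3 it called 187 higher and 332 lower. For late differences it called 128 and 138 for rad3 minus WT, and 193 and 221 for cds1 minus WT. Beside these, the block gave 8 early calls of members in rad3, 1 in cds1 and 3 in chk1. It also gave 4 late differences of members for each of rad3 minus WT and cds1 minus WT. These were rpb1, rpb8, rpb10 and rpc25 for rad3 (adjusted p = 0.0123, 0.0195, 0.0344 and 0.0398) and rpa12, rpc25, rpb7 and rpb10 for cds1 (adjusted p = 0.00625, 0.0257, 0.0391 and 0.0447). In late WT the block called rpb10 higher (0.29; adjusted p = 0.00813). In early rad3 and late WT the numbers did not pair the samples by the rule used. A block shared by the strains, chosen after seeing the data, gave 11 calls for untreated rad3sep1 minus rad3.

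With a sample left out, late calls numbered 6 to 13 in rad3, 11 to 16 in cds1, 6 to 10 in chk1 and 6 to 9 in WT, early calls in rad3 0 to 3, untreated rad3sep1 minus rad3 5 to 7, and 0 in the other comparisons. The late and early responses of rad3sep1, with 1 sample for each time, allowed neither this nor a fit of rad3sep1 alone. The number of arrays, and with it the wide intervals, limits what could be called.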
